A study of Homo sapiens with 48 samples.

Results

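Interferon-stimulated genes were examined in TMD8 and HBL1, human lymphoma lines of the activated B cell-like (ABC) subtype of DLBCL, a large-cell cancer of B cells, after inhibition of N-glycosylation or of B cell receptor signalling. The set held 47 genes chosen by symbol, out of 25066 genes in the count table. All 47 had reads and all 47 were among the 13881 genes with enough reads to be tested. Cells of each line were treated with NGI-1 (5 µM, an inhibitor of the oligosaccharyltransferase that attaches N-glycans to proteins), acalabrutinib (50 nM, a BTK inhibitor), copanlisib (20 nM, a PI3K inhibitor) or the vehicle DMSO for 3, 6 and 24 h. RNA was sequenced from 2 libraries in each of the 24 groups of line, compound and time. All groups of both lines, the DMSO groups included, carry the genotype label "Cas9 engineered", and all were grown in advanced RPMI with 5% FBS. The labels state neither whether the Cas9 lines are single clones nor whether libraries 1 and 2 are separate cultures. Each p-value therefore rests on the spread of these libraries alone, and that spread may be purely technical.

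Type I interferons bind the receptor IFNAR1/IFNAR2 and act through the kinases JAK1 and TYK2 on STAT2, which joins IRF9 in the complex ISGF3. ISGF3 binds the interferon-stimulated response element (ISRE) in the promoters of antiviral genes, while the GAS element is known mainly from genes that answer to interferon-gamma. In activated B cell-like lymphoma, MYD88 signalling is known to induce interferon-beta, and IRF4 and SPIB are known to restrain interferon genes. Total counts were between 7165377 and 11999050 reads per library. Levels are given as CPM, counts scaled to the size and composition of each library, for libraries 1 and 2 of a group in that order. Changes are log2 fold changes ± SE with the Benjamini-Hochberg adjusted p of edgeR's quasi-likelihood test over all tested genes, and a gene was called higher or lower at an adjusted p under 0.05. B cell markers summed to between 2421 and 3999 CPM in TMD8 and to between 2208 and 3674 CPM in HBL1. T and NK cell markers stayed at or under 2.53 CPM in sum, myeloid markers at or under 4.14 CPM, and stromal or epithelial markers at or under 24.4 CPM. The 4 markers of plasmacytoid dendritic cells, which produce much interferon, summed to between 6.39 and 17.6 CPM in TMD8 and to between 250 and 733 CPM in HBL1, where LILRA4 carried nearly all of the sum. Fewer responding cells and less RNA per cell cannot be told apart in these bulk samples.

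Promoter windows from RefSeq (GRCh38.p14, 250 bases before to 50 bases after the annotated start) were found for 37 of the 47 genes. The ISRE letters, GAAA and a second GAAA with any 2 bases between them, searched on both strands, occurred in a window of 24 of these 37 genes (64.9%), against 1195 of 27305 genes in the RefSeq promoter table (4.38%). The letters TTCNNNGAA of the GAS element occurred in 14 of the 37 (37.8%), against 9.38% of all genes in that table. Windows are shown for genes that stand for the 3 patterns described below. EPSTI1 (chr13:42992192-42992491, minus strand) was higher with NGI-1 in TMD8. IFIT1 (chr10:89392373-89392672, plus strand) was lower with copanlisib in TMD8 at 6 and 24 h. OAS1 (chr12:112906712-112907011, plus strand) and STAT2 (chr12:56360058-56360357, minus strand) were called higher in both lines at 24 h. Each is written in the direction of transcription, and capitals mark ISRE letters on either strand.
EPSTI1: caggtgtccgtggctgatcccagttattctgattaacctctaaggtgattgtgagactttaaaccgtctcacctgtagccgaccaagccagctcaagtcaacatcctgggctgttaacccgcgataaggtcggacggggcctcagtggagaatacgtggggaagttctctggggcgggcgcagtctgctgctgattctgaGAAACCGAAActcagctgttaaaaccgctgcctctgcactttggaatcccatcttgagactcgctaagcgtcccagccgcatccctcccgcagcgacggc
IFIT1: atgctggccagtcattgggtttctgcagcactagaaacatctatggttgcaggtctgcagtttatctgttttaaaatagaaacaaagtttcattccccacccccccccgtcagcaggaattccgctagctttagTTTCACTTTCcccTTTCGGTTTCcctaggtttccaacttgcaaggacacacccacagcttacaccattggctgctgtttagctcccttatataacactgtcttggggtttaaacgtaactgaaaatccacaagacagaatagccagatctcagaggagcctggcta
OAS1: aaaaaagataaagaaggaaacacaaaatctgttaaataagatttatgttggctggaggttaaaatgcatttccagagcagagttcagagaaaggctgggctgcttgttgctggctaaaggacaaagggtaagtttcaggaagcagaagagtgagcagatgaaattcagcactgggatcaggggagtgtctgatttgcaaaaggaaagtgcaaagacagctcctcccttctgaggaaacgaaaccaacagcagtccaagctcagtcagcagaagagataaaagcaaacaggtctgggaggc
STAT2: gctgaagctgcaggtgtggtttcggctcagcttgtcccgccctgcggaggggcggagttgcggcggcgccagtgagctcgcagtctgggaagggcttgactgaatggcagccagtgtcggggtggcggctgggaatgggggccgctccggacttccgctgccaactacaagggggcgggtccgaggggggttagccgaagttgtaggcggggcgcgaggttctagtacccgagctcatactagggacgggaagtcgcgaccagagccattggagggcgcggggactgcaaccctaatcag
EPSTI1 held 1 ISRE match, 50 bases before its start, overlapping a GAS match. IFIT1 held 2 ISRE matches on the minus strand, 116 and 103 bases before its start. OAS1 held 1 GAS match and no ISRE letters as searched, with 2 bases between the GAAA repeats. Its window does hold gaaacgaaa, with 1 base between them, a spacing that the search did not count. STAT2 held neither a GAS match nor the ISRE letters as searched. These matches describe the letters alone, and binding was not measured. The reads were counted on hg19, and no coordinates of that build were used.

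Under DMSO, over the 3 times together, 29 members were higher in TMD8 than in HBL1 and 10 were lower, where 39.3% of all tested genes were called higher and 39.3% lower. The 39 calls are 83% of the members, near the 78.5% of all tested genes that differed between the lines. The IFITM genes, whose proteins block the entry of viruses at membranes, were higher in TMD8. IFITM1 had a lowest, median and highest level of 18.9, 23.4 and 28.9 CPM over the 6 TMD8 libraries, against 0.199, 0.962 and 1.44 CPM over the 6 HBL1 libraries (4.74 ± 0.19, adjusted p = 3.48e-24). HERC6, a HECT-type ubiquitin ligase, had 26.4, 32.2 and 52.6 CPM in TMD8 against 3.48, 5.04 and 6.64 CPM in HBL1 (2.82 ± 0.12). IFIT2, a member of the RNA-binding IFIT family, had 7.72, 20.4 and 32.6 CPM in TMD8 against 0.996, 1.59 and 2.42 CPM in HBL1 (3.47 ± 0.16). For all 3 genes the libraries of the lines did not overlap. IFI44 ran the other way, with 0.433, 1.44 and 3.02 CPM in TMD8 against 20.2, 25.2 and 28.3 CPM in HBL1 (-4.05 ± 0.17, adjusted p = 2.75e-24). Its neighbour in the genome, IFI44L, had 2.89, 5.72 and 12.7 CPM in TMD8 against 36.5, 49.7 and 74 CPM in HBL1 (-3.08 ± 0.13). IFI27, which encodes a mitochondrial protein, had 23.3, 27.9 and 32.1 CPM in TMD8 against 143, 150 and 197 CPM in HBL1 (-2.56 ± 0.12). ISG20, an RNA exonuclease, was also lower in TMD8 (-1.70 ± 0.10). The libraries of the lines were fully apart for these genes too. CMPK2, a nucleotide kinase, had 0 reads in all 24 TMD8 libraries and 1 to 17 reads per library in HBL1, so no change could be measured in TMD8. It stands at 0 in the TMD8 medians given below, and leaving it out moved these medians by at most 0.03. Reads were also few for GBP2 (1 to 24 per library) and IFI44 (2 to 29) in TMD8, and for IFIT2 (2 to 23) and IFITM1 (2 to 19) in HBL1, so changes of these genes are measured with little precision there. The IFITM genes are alike in sequence and the IFIT genes are related. How the counting treated reads that fit more than 1 of them was not examined. Strand use in the counting was not given in the sources used here, so overlapping antisense transcripts cannot be separated from these genes.

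**Figure D1:**
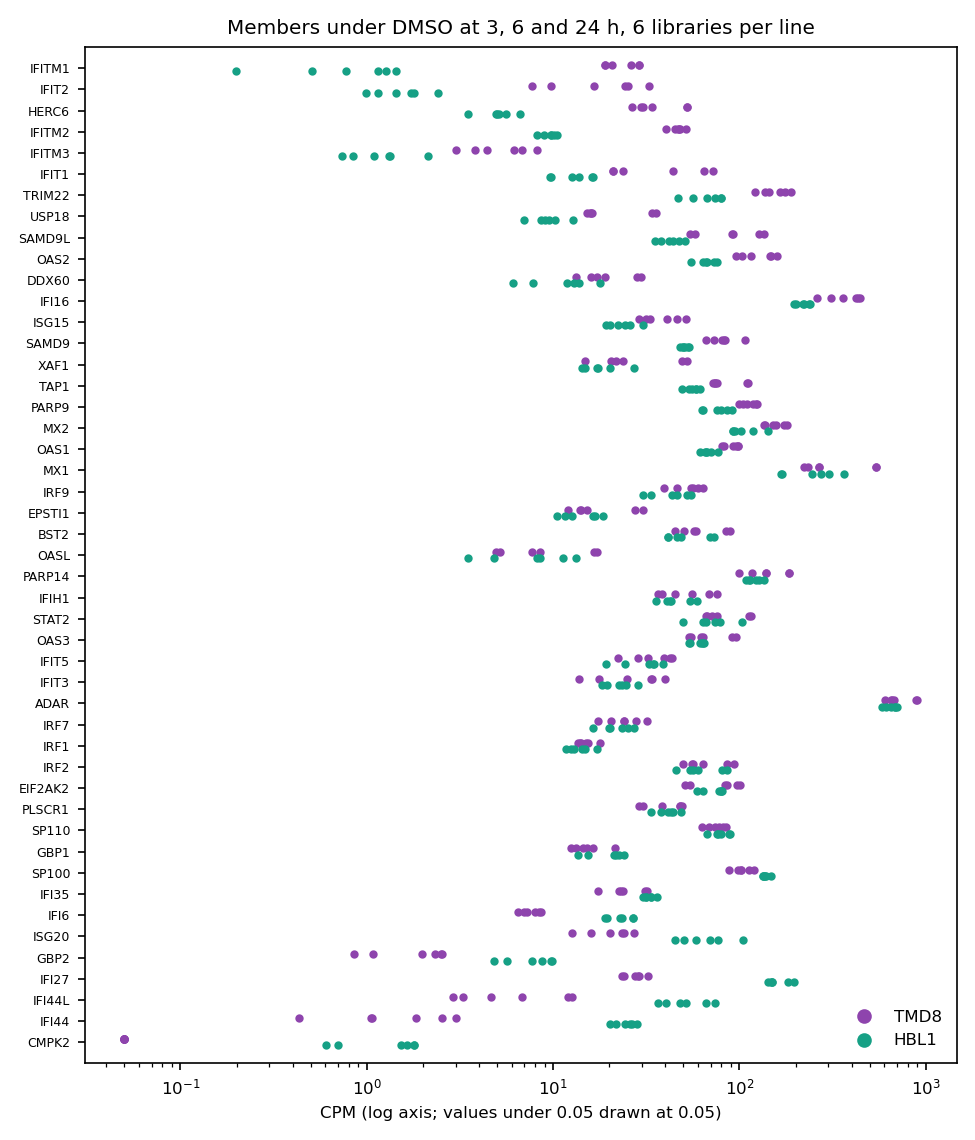
CPM of each of the 47 genes (rows, ordered by the difference between the lines) in the 6 DMSO libraries of TMD8 and the 6 of HBL1, on a log axis; values under 0.05 are drawn at 0.05. IFITM1, IFIT2 and HERC6 at the top are higher in TMD8, and IFI27, IFI44L, IFI44 and CMPK2 at the bottom are lower in TMD8.

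The genes also moved with time under DMSO alone. At 24 h against 3 h, 12 members were higher and 10 lower in TMD8 (16.9% and 15.9% of all tested genes), and 8 were higher and 14 lower in HBL1 (20.8% and 19.2% of all tested genes). Without replicate 1 of DMSO at 3 h the 22 calls in TMD8 became 14. BST2, which encodes the virus-tethering protein tetherin, had 84.6 and 88.4 CPM at 24 h against 50.5 and 44.9 CPM at 3 h in TMD8 (0.85 ± 0.12, adjusted p = 3.11e-07). In HBL1 BST2 had 69.8 and 72.9 CPM at 24 h against 46.2 and 48.8 CPM at 3 h (0.59 ± 0.12, adjusted p = 7.45e-05). IRF9, the DNA-binding subunit of ISGF3, had 39.4 and 46.4 CPM at 24 h against 63.5 and 59.8 CPM at 3 h in TMD8 (-0.52 ± 0.11, adjusted p = 0.000281). In HBL1 it had 30.3 and 33.6 CPM at 24 h against 54.8 and 52.5 CPM at 3 h (-0.75 ± 0.11, adjusted p = 1.23e-06). Both genes thus moved the same way in both lines, with no overlap between the times. IFIT2 fell in TMD8 to 9.79 and 7.72 CPM at 24 h, against 32.6 and 24.3 CPM at 3 h (-1.71 ± 0.20, adjusted p = 2.7e-08). MX1, a GTPase that traps viral nucleocapsids, passed through a maximum in TMD8, with 266 and 221 CPM at 3 h, 540 and 541 CPM at 6 h, and 268 and 233 CPM at 24 h. In HBL1 MX1 had 246 and 273 CPM at 3 h, 304 and 362 CPM at 6 h, and 167 and 170 CPM at 24 h. The 6 h libraries were the highest of each line, a difference that was not tested. Each compound was therefore set against DMSO of the same time.

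NGI-1 for 24 h raised most of the genes in TMD8. There, 25 of 47 members were higher and 1 was lower than with DMSO, with a median change of 0.41. Of all tested genes 15.7% were called higher and 14.9% lower, and their median was 0.01. The summed level of the 47 genes was between 4551 and 4812 CPM with NGI-1 and between 3351 and 3610 CPM with DMSO. In 34 members both NGI-1 libraries lay above both DMSO libraries, in 4 they lay below, and in 9 the groups overlapped. The same count was not made over all tested genes, so these numbers only describe the members. When 1 library at a time was left out, the 26 calls became 22 or 23, and 19 of the higher members and the lower one were called every time.

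Among the transcription factors, 4 of 5 members were higher. STAT2 had 226 and 238 CPM with NGI-1 against 112 and 115 CPM with DMSO (1.03 ± 0.14, adjusted p = 2.57e-07). IRF9, its partner, had 64 and 67.2 CPM with NGI-1 against 39.4 and 46.4 CPM with DMSO (0.61 ± 0.11, adjusted p = 3.02e-05). IRF7, the factor that amplifies interferon-alpha production, had 34.5 and 34.7 CPM with NGI-1 against 23.9 and 23.9 CPM with DMSO (0.53 ± 0.16, adjusted p = 0.00805). In these genes both NGI-1 libraries lay above both DMSO libraries. IRF1, an activator of antigen presentation genes, had 17.6 and 15.9 CPM with NGI-1 against 13.6 and 15.3 CPM with DMSO and was not called (adjusted p = 0.345). IRF2, which competes with IRF1, was called higher by 0.24, but not without NGI-1 replicate 1 (adjusted p = 0.127), DMSO replicate 2 (0.222) or NGI-1 replicate 2 (0.0694).

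Among RNA sensors and enzymes that act on RNA, 6 of 9 were higher and none was lower. OAS1, which makes the 2-5A messenger that switches on RNase L, had 215 and 209 CPM with NGI-1 against 82.6 and 80.6 CPM with DMSO (2.6-fold, 1.38 ± 0.09, adjusted p = 9.35e-15). ISG20 had 38.2 and 41.6 CPM with NGI-1 against 12.6 and 16 CPM with DMSO (2.77-fold, 1.47 ± 0.18, adjusted p = 2.57e-08). DDX60, a helicase that assists RNA sensing, had 35.5 and 35.3 CPM with NGI-1 against 18.9 and 17.2 CPM with DMSO (0.97 ± 0.16, adjusted p = 9.97e-06). All 3 were clear of the DMSO libraries. OAS2 (0.83 ± 0.12) and OAS3 (0.43 ± 0.09), which also make 2-5A, rose as well. EIF2AK2, the kinase PKR that halts translation on sensing double-stranded RNA, had 79.3 and 72.5 CPM with NGI-1 against 86.3 and 84.1 CPM with DMSO and was not called (adjusted p = 0.256). The RNA sensor MDA5 (IFIH1, 0.23) and the editing enzyme ADAR (0.12) were not called either.

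Among antiviral effectors, MX1 had 387 and 347 CPM with NGI-1 against 268 and 233 CPM with DMSO (0.55 ± 0.11, adjusted p = 0.000132). IFIT2 had 22.9 and 20.6 CPM with NGI-1 against 9.79 and 7.72 CPM with DMSO (1.31 ± 0.21, adjusted p = 4.08e-06). It was the only called member among the 7 IFIT and IFITM genes. IFIT1, which binds RNA lacking a methylated cap, had 26.5 and 28.5 CPM with NGI-1 against 21 and 21 CPM with DMSO and was not called (adjusted p = 0.109). SAMD9L and SAMD9, translation regulators that restrict poxviruses, rose by 0.96 ± 0.09 (adjusted p = 1.35e-10) and 0.75 ± 0.10 (adjusted p = 1.41e-07). TAP1, which carries peptides to MHC class I, had 92.1 and 107 CPM with NGI-1 against 71.7 and 74.1 CPM with DMSO (0.45 ± 0.09, adjusted p = 0.000136). ISG15, a ubiquitin-like modifier, had 43.2 and 53 CPM with NGI-1 against 31.5 and 40.9 CPM with DMSO. Both NGI-1 libraries of ISG15 were above both DMSO libraries, but its call (0.41, adjusted p = 0.0423) was not kept when DMSO replicate 1 (0.405) or NGI-1 replicate 2 (0.378) was left out. BST2 was called higher by 0.37, but leaving out DMSO replicate 1 (0.0628) or NGI-1 replicate 2 (0.178) ended the call. USP18, which removes ISG15 from proteins and dampens IFNAR2, was not called (0.43, adjusted p = 0.117).

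EPSTI1, an interferon-inducible gene named for stromal interaction, had 29 and 27.5 CPM with NGI-1 against 15.2 and 14.2 CPM with DMSO (1.92-fold, 0.94 ± 0.15, adjusted p = 7.01e-06). XAF1, a promoter of apoptosis, had 48.3 and 41.2 CPM with NGI-1 against 23.7 and 21.6 CPM with DMSO (0.98 ± 0.17, adjusted p = 1.82e-05). IFI35, an interferon-inducible leucine zipper protein, had 43 and 39.5 CPM with NGI-1 against 23.2 and 23.8 CPM with DMSO (0.81 ± 0.13, adjusted p = 9.26e-06). In each of these genes the NGI-1 libraries were the higher ones, with no overlap. The lower member was GBP1, a guanylate-binding GTPase that attacks pathogen membranes and answers mainly to interferon-gamma. It had 8.96 and 7.58 CPM with NGI-1 against 21.4 and 15.2 CPM with DMSO (-1.14 ± 0.20, adjusted p = 1.93e-05). GBP1 was also called lower with NGI-1 in HBL1, with a mean of 9.19 CPM against 14.5 CPM with DMSO.

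**Figure D2:**
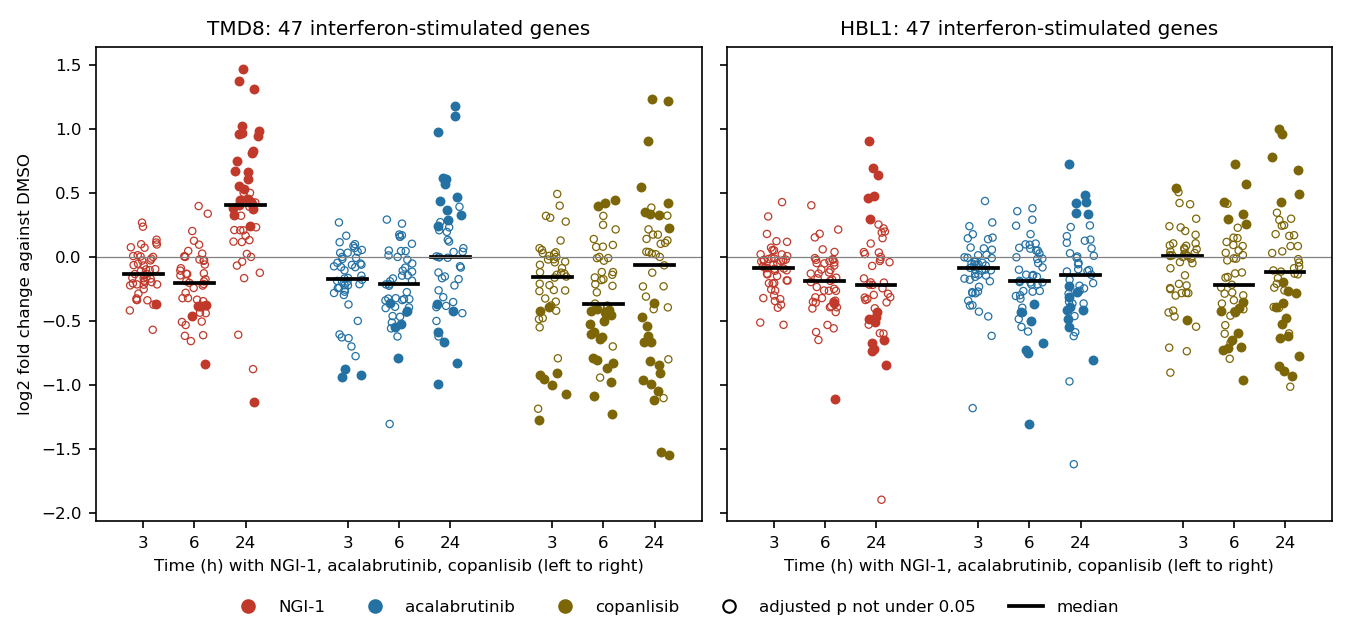
Log2 fold change against DMSO of each of the 47 genes (1 point a gene) for NGI-1, acalabrutinib and copanlisib at 3, 6 and 24 h, in TMD8 (left) and HBL1 (right); filled points had an adjusted p under 0.05 and bars mark the median. The NGI-1 median at 24 h is 0.41 in TMD8 and -0.22 in HBL1, and the copanlisib points at 6 h in TMD8 lie mostly below 0 (median -0.36).

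In HBL1, NGI-1 for 24 h raised 6 members and lowered 9, with a median change of -0.22, where 7.95% of all tested genes were called higher and 11.4% lower. Leaving out replicate 1 of either group turned the 15 calls into 9. Same-numbered HBL1 libraries deviated together, and with a replicate block within each line and time 9 were higher and 15 lower, 51.1% of the members, where 31.2% of all tested genes were called. OAS1 had 130 and 119 CPM with NGI-1 against 65.6 and 67.2 CPM with DMSO (0.91 ± 0.09, adjusted p = 3.66e-09). TRIM22, a ubiquitin ligase that restricts viral transcription, had 75.4 and 85.3 CPM with NGI-1 against 47 and 56.2 CPM with DMSO (0.64 ± 0.10, adjusted p = 1.28e-05). SAMD9 had 73.5 and 70.9 CPM with NGI-1 against 51.2 and 53.6 CPM with DMSO (0.46 ± 0.10, adjusted p = 0.00119). These genes lay above DMSO in both libraries. Among the lower genes, PARP9, an ADP-ribosyltransferase partner that promotes interferon signalling, had 40.9 and 38.4 CPM with NGI-1 against 64.1 and 62.6 CPM with DMSO (-0.68 ± 0.10, adjusted p = 4.88e-06). MX1 had 119 and 122 CPM with NGI-1 against 167 and 170 CPM with DMSO (-0.48 ± 0.11, adjusted p = 0.0019). EIF2AK2 had 57.7 and 53.4 CPM with NGI-1 against 80.8 and 77.6 CPM with DMSO (-0.51, adjusted p = 0.000661). In each of these the NGI-1 libraries were the lower ones. IFI44L, a negative regulator of interferon responses, had 27.2 and 33.4 CPM with NGI-1 against 47.8 and 51.7 CPM with DMSO (-0.72, adjusted p = 0.00308), a call lost without NGI-1 replicate 1 (0.0821).

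The effect of NGI-1 at 24 h differed between the lines in 15 members, and in all of them the change was more positive in TMD8 than in HBL1. The median difference (TMD8 minus HBL1) was 0.49 over the 46 genes other than CMPK2. Of all tested genes 1.79% differed in that direction and 0.72% in the other, with a median of 0.01. With a replicate block within each line and time, 27 members differed (57.4%), all more positive in TMD8, where 9.17% of all tested genes were called. MX1 differed by 1.04 ± 0.16 (adjusted p = 4.57e-05), since it rose in TMD8 and fell in HBL1. EPSTI1 differed by 1.23 ± 0.24 (adjusted p = 0.00118), and in HBL1 it had 9.68 and 8.33 CPM with NGI-1 against 10.6 and 11.5 CPM with DMSO. IFI35 differed by 1.05 ± 0.19 (adjusted p = 0.000453), with 28.9 and 24.7 CPM under NGI-1 against 33.4 and 30.3 CPM under DMSO in HBL1. PARP9 differed by 0.79 ± 0.14 (adjusted p = 0.000258), although its change was the larger one in HBL1, where it fell, while in TMD8 it was not called (0.12, adjusted p = 0.363). SAMD9L differed by 0.66 ± 0.14 (adjusted p = 0.00277). These 5 calls held whichever library was left out. The count did not: it became 5 without NGI-1 replicate 1 in HBL1, 6 without DMSO replicate 2 in TMD8, 7 without DMSO replicate 2 in HBL1 and 8 without either NGI-1 library in TMD8. Without DMSO replicate 1 or NGI-1 replicate 2 in HBL1 it was 9.

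**Figure D3:**
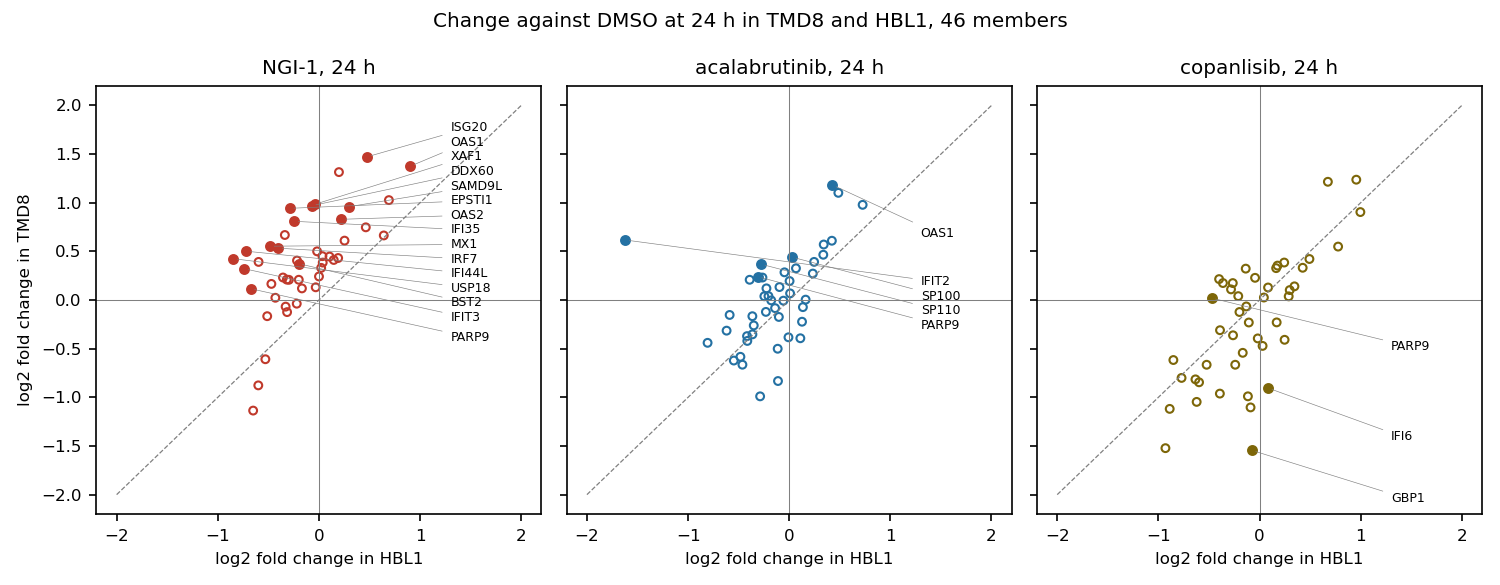
Log2 fold change against DMSO at 24 h in TMD8 (vertical) and HBL1 (horizontal) for NGI-1, acalabrutinib and copanlisib; 1 point a gene, without CMPK2, which had 0 reads in TMD8. Filled, named points differed between the lines at an adjusted p under 0.05, the dashed line marks equal changes, and with NGI-1 nearly all points lie above it (median difference 0.49).

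At 24 h the members called higher in both lines were ISG20, OAS1, STAT2, SAMD9, SAMD9L and TRIM22, and each compound gave this list. These 6 are 12.8% of the members, where 5.12% of all tested genes were called higher in both lines with NGI-1, 4.25% with acalabrutinib and 6.56% with copanlisib. They made up all of the members called higher in HBL1 (100%), and for copanlisib in HBL1 alone 12.8% is near the 12.7% of all tested genes called higher. With the replicate block, 9, 7 and 9 members were higher in HBL1 with NGI-1, acalabrutinib and copanlisib. In either direction the block called 51.1%, 51.1% and 48.9% of the members there. Of all tested genes it called 31.2%, 30.3% and 40.1%. In TMD8 these 6 genes were 24% of the members called higher with NGI-1, 50% with acalabrutinib and 66.7% with copanlisib. The 3 comparisons in a line share its DMSO libraries, so the values are given side by side and are not separate evidence. OAS1 in TMD8 had 215 and 209 CPM with NGI-1, 196 and 175 CPM with acalabrutinib and 187 and 198 CPM with copanlisib, against 82.6 and 80.6 CPM with DMSO. The changes were 1.38 ± 0.09, 1.18 ± 0.09 and 1.24 ± 0.09 in that order. In HBL1 OAS1 had 130 and 119 CPM with NGI-1, 96.6 and 82.1 CPM with acalabrutinib and 137 and 120 CPM with copanlisib, against 65.6 and 67.2 CPM with DMSO. All treated libraries were above DMSO in both lines, and the acalabrutinib libraries of HBL1 were the lowest of the treated ones. The acalabrutinib call in HBL1 (0.43 ± 0.10, adjusted p = 0.00112) was lost without acalabrutinib replicate 1 (0.0716).

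STAT2 in TMD8 had 226 and 238 CPM with NGI-1, 210 and 239 CPM with acalabrutinib and 198 and 229 CPM with copanlisib, against 112 and 115 CPM with DMSO. In HBL1 it had 132 and 154 CPM with NGI-1, 145 and 148 CPM with acalabrutinib and 168 and 185 CPM with copanlisib, against 74.3 and 103 CPM with DMSO. Treated and DMSO libraries did not overlap in either line. The changes in HBL1 were 0.69 ± 0.14 (NGI-1, adjusted p = 0.000442), 0.73 ± 0.14 (acalabrutinib, adjusted p = 0.000272) and 1.00 ± 0.14 (copanlisib, adjusted p = 7.95e-07), and the NGI-1 call was lost without DMSO replicate 1 (0.0684). ISG20 in TMD8 had 38.2 and 41.6 CPM with NGI-1, 31.4 and 30.2 CPM with acalabrutinib and 28.8 and 38.3 CPM with copanlisib, against 12.6 and 16 CPM with DMSO. In HBL1 it had 63.3 and 70.2 CPM with NGI-1, 68.4 and 65.8 CPM with acalabrutinib and 78.4 and 74.6 CPM with copanlisib, against 50.6 and 45.1 CPM with DMSO. ISG20 libraries were again apart, but in HBL1 only the copanlisib call (0.68 ± 0.15, adjusted p = 0.000471) held with each library left out. The NGI-1 call (0.48) was lost without either DMSO library (0.0519 and 0.141) or NGI-1 replicate 2 (0.158). The acalabrutinib call (0.49) was lost without either acalabrutinib library (0.0996 and 0.0577) or DMSO replicate 2 (0.134).

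TRIM22 rose in TMD8 by 0.66 with NGI-1, 0.61 with acalabrutinib and 0.55 with copanlisib (SE 0.09 each). In HBL1 it rose by 0.64, 0.42 and 0.78 (SE 0.10 each) with the compounds in the same order, and the acalabrutinib call was lost without DMSO replicate 1 (adjusted p = 0.141). SAMD9L rose in TMD8 by 0.96, 0.57 and 0.42 (SE 0.09 each) and in HBL1 by 0.30, 0.34 and 0.49 (SE 0.10 each). In HBL1 its NGI-1 call was lost without DMSO replicate 1 (0.407) or either NGI-1 library (0.0803 and 0.199), and its acalabrutinib call without DMSO replicate 1 (0.278) or acalabrutinib replicate 2 (0.208). SAMD9 rose in TMD8 by 0.75, 0.47 and 0.33 and in HBL1 by 0.46, 0.34 and 0.43. The copanlisib call in TMD8 was lost without DMSO replicate 2 (0.0643) or copanlisib replicate 2 (0.0572), and the acalabrutinib call in HBL1 without DMSO replicate 1 (0.157) or acalabrutinib replicate 2 (0.149). In every one of these comparisons both treated libraries were above both DMSO libraries.

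**Figure D4:**
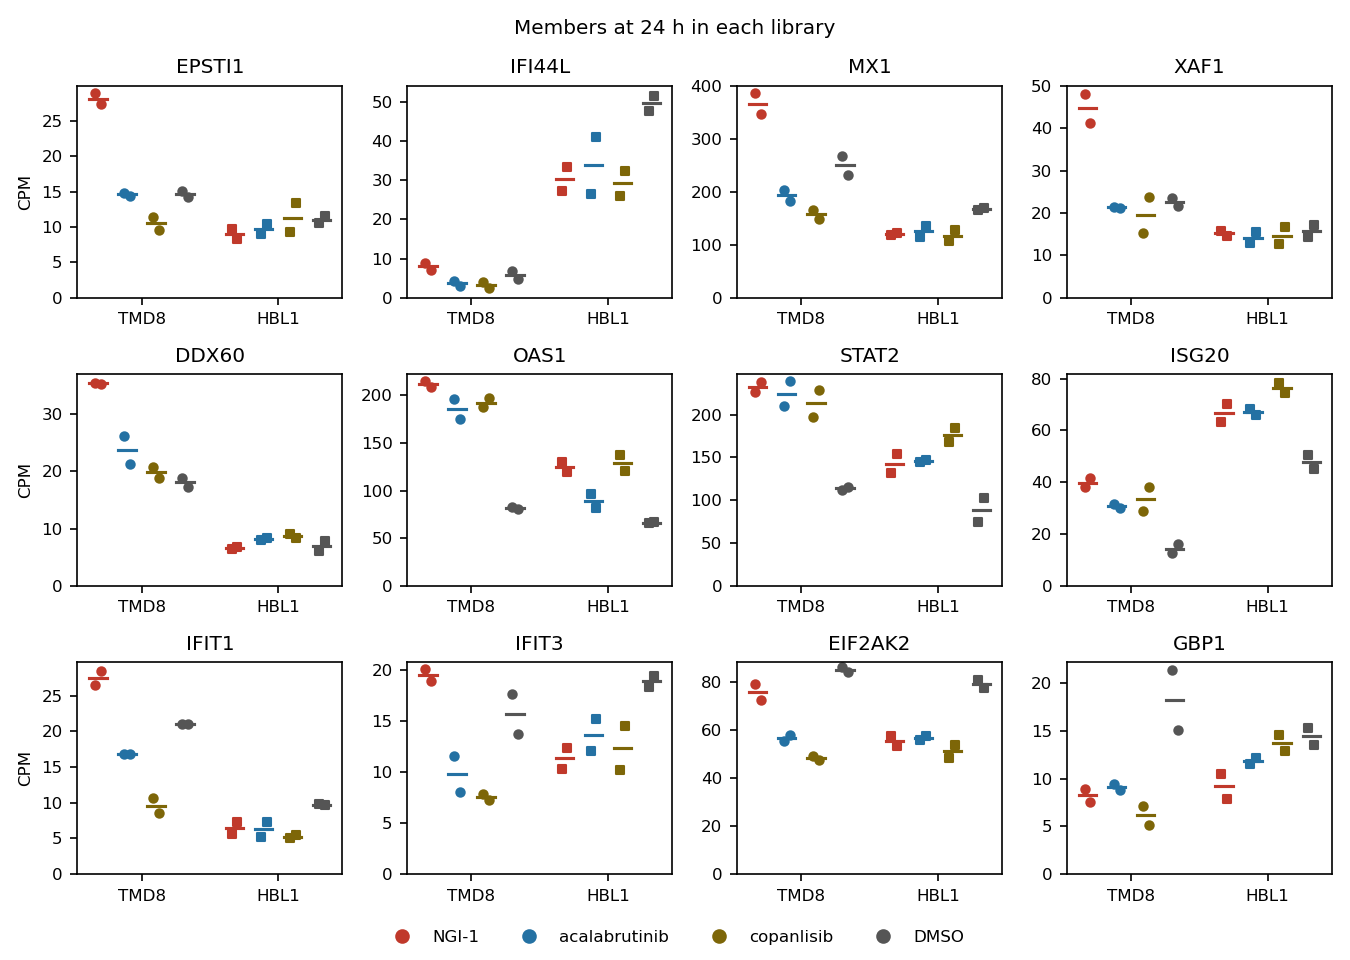
CPM at 24 h of 12 genes in each library (points, libraries 1 and 2 from left to right) under NGI-1, acalabrutinib, copanlisib and DMSO in TMD8 (circles, left) and HBL1 (squares, right); bars are means of 2 libraries and axes start at 0. EPSTI1 and XAF1 are high with NGI-1 in TMD8, OAS1, STAT2 and ISG20 are above DMSO in both lines, and IFIT1, IFIT3 and GBP1 have their lowest TMD8 values with copanlisib.

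Members called lower in both lines at 24 h were 2.13% with NGI-1, 6.38% with acalabrutinib and 12.8% with copanlisib. Of all tested genes 7.49%, 7.38% and 10% were called lower in both, in the same order. With acalabrutinib for 24 h, 12 members were higher and 6 lower in TMD8 (15.5% of all tested genes in each direction), with a median of 0.00. The 6 lower ones are 12.8% of the members. In HBL1, 6 were higher and 9 lower (7.62% and 11.4% of all tested genes), with a median of -0.14. These 15 calls became 6 without DMSO replicate 1 or either acalabrutinib library and 9 without DMSO replicate 2, while with the replicate block 7 were higher and 17 lower, where 30.3% of all tested genes were called. With copanlisib, 9 were higher and 15 lower in TMD8 (15.8% and 16% of all tested genes), with a median of -0.07. In HBL1, 6 were higher and 13 lower (12.7% and 17.8% of all tested genes), with a median of -0.11, and the 19 calls became 11 without copanlisib replicate 1.

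The IFIT and IFITM genes were the group with most lower calls for copanlisib in TMD8, 6 of 7. IFIT1 had 10.6 and 8.56 CPM with copanlisib and 16.8 and 16.9 CPM with acalabrutinib, against 21 and 21 CPM with DMSO. The copanlisib change was -1.12 ± 0.21 (adjusted p = 6.38e-05), and the acalabrutinib change of -0.31 was not called. IFIT3, a partner that stabilises IFIT1, had 7.84 and 7.23 CPM with copanlisib against 17.6 and 13.7 CPM with DMSO (-1.05 ± 0.24, adjusted p = 0.000673). IFITM1 had 11.7 and 12.3 CPM with copanlisib against 26.2 and 20.6 CPM with DMSO (-0.96 ± 0.22, adjusted p = 0.000695). All copanlisib libraries of these genes were below DMSO, and the calls held with each library left out. The calls of IFIT5, IFITM2 and IFITM3 did not: IFIT5 (-0.54) was lost without DMSO replicate 1 (adjusted p = 0.111) or copanlisib replicate 2 (0.0829), IFITM2 (-0.36) without DMSO replicate 1, DMSO replicate 2 or copanlisib replicate 1, and IFITM3 (-0.85) without DMSO replicate 2 or either copanlisib library. With acalabrutinib IFITM1 had 13.4 and 12.8 CPM (-0.83), a call lost without DMSO replicate 1 (adjusted p = 0.0679).

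EIF2AK2 had 55.6 and 58 CPM with acalabrutinib and 49.3 and 47.4 CPM with copanlisib in TMD8, against 86.3 and 84.1 CPM with DMSO. Its changes there were -0.58 ± 0.11 (adjusted p = 5.12e-05) and -0.82 ± 0.11 (adjusted p = 2.26e-07). In HBL1 EIF2AK2 had 55.8 and 57.6 CPM with acalabrutinib and 48.4 and 53.9 CPM with copanlisib, against 80.8 and 77.6 CPM with DMSO. The HBL1 changes were -0.48 (adjusted p = 0.00132) and -0.63 (adjusted p = 2.09e-05), and in both lines DMSO held the highest libraries. GBP1 had 9.48 and 8.83 CPM with acalabrutinib and 7.14 and 5.18 CPM with copanlisib in TMD8, against 21.4 and 15.2 CPM with DMSO (-0.99 ± 0.19 and -1.54 ± 0.20). In HBL1 GBP1 had 11.6 and 12.1 CPM with acalabrutinib and 14.5 and 12.9 CPM with copanlisib, against 15.3 and 13.6 CPM with DMSO, and neither was called. Copanlisib lowered MX1 in both lines, to 166 and 149 CPM in TMD8 against 268 and 233 CPM with DMSO (-0.67 ± 0.11, adjusted p = 1.18e-05). In HBL1 MX1 had 106 and 128 CPM with copanlisib against 167 and 170 CPM with DMSO (-0.52, adjusted p = 0.000446). The copanlisib libraries of MX1 were below DMSO in both lines. IFI6, an antiapoptotic mitochondrial protein, fell with copanlisib in TMD8 to 4.07 and 5.06 CPM, against 8.6 and 8.39 CPM with DMSO (-0.90 ± 0.21, adjusted p = 0.00105).

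The effect of acalabrutinib at 24 h differed between the lines in 5 members, all more positive in TMD8 (2.23% of all tested genes called in that direction). That of copanlisib was more positive in TMD8 in 1 member and more negative in TMD8 in 2 (2.18% and 1.99% of all tested genes). With a replicate block within each line and time more members were called, and for copanlisib the more frequent direction changed. Acalabrutinib then gave 10 members more positive and 1 more negative in TMD8, where 12.3% of all tested genes were called. Copanlisib gave 8 more positive and 4 more negative, where 12.7% were called. The acalabrutinib effect on OAS1 was larger in TMD8 by 0.76 ± 0.13 (adjusted p = 0.000209). SP110, a nuclear body protein, had 93.7 and 101 CPM with acalabrutinib against 77.2 and 73.6 CPM with DMSO in TMD8, and 71.1 and 74.4 CPM with acalabrutinib against 89 and 87.5 CPM with DMSO in HBL1. Its effects ran in opposite directions and differed by 0.65 ± 0.13 (adjusted p = 0.00176). The copanlisib effect on GBP1 was lower in TMD8 by -1.47 ± 0.28 (adjusted p = 0.000577). These 3 differences held with each library left out. The acalabrutinib count became 2 without DMSO replicate 2 of TMD8 or acalabrutinib replicate 2 of HBL1, and 3 without DMSO or acalabrutinib replicate 1 of HBL1. The copanlisib count became 1 without DMSO replicate 2 of TMD8, either DMSO library of HBL1 or copanlisib replicate 2 of HBL1.

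At the early times most of the called members were lower than with DMSO. At 3 h NGI-1 gave 1 lower member in TMD8 (0.173% of all tested genes called lower), which was IFI16, a DNA sensor, and it was not called without DMSO replicate 1 (adjusted p = 0.63) or either NGI-1 library (0.204 and 0.155). Without DMSO replicate 2 the count was 2. In HBL1 NGI-1 gave 0 called members at 3 h (0.353% of all tested genes called) by edgeR and 0 by DESeq2, with 4 at an unadjusted p under 0.05. Acalabrutinib at 3 h gave 3 lower members in TMD8 (0.389% of all tested genes called lower), IFIT1, IFIT2 and IFIT3. None of these was called without DMSO replicate 1 or either acalabrutinib library. In HBL1 acalabrutinib gave 0 by edgeR and 0 by DESeq2 (0.245% of all tested genes called), with 7 at an unadjusted p under 0.05. Copanlisib at 3 h gave 8 lower members in TMD8 (1.11% of all tested genes called lower), which became 1 without DMSO replicate 1 and 4 without either copanlisib library. IFIT5, an RNA-binding IFIT protein, was called in each case, with 20.8 and 19.3 CPM with copanlisib against 42.3 and 32.4 CPM with DMSO (-0.91 ± 0.14, adjusted p = 2.2e-05). In HBL1 copanlisib gave 1 higher and 1 lower member at 3 h (0.814% and 1.29% of all tested genes). The higher one was OAS1, with 108 and 105 CPM against 70 and 77.1 CPM with DMSO (0.54 ± 0.09, adjusted p = 0.000311). The lower one was IFIT5, which was not called without DMSO replicate 1 (0.323) or either copanlisib library (0.164 and 0.105). With the replicate block, HBL1 at 3 h gave 1 member with NGI-1, 2 with acalabrutinib and 11 with copanlisib, where 2.1%, 1.81% and 8.05% of all tested genes were called.

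By 6 h copanlisib lowered 18 members and raised 3 in TMD8 (7.46% and 7.09% of all tested genes), with a median of -0.36, and the 21 calls became 11 without copanlisib replicate 2. In HBL1 it lowered 10 and raised 6 (5.34% and 4.19% of all tested genes), and these 16 became 9 without DMSO replicate 1 and 8 without any of the other 3 libraries. IFIT1 in TMD8 had 35.3 and 40.9 CPM with NGI-1, 38.2 and 40.6 CPM with acalabrutinib and 29.5 and 28.7 CPM with copanlisib, against 64.3 and 71.9 CPM with DMSO. In HBL1 IFIT1 had 5.81 and 9.16 CPM with NGI-1, 7.53 and 5.6 CPM with acalabrutinib and 6.92 and 9.7 CPM with copanlisib, against 16.1 and 16.3 CPM with DMSO. The DMSO libraries were the highest in both lines. In TMD8 the changes were -0.79 ± 0.17 with acalabrutinib (adjusted p = 0.0021) and -1.23 ± 0.17 with copanlisib (adjusted p = 1.3e-06). The NGI-1 change of -0.84 was not called without NGI-1 replicate 1 (0.0574). In HBL1 the acalabrutinib change was -1.31 ± 0.23 (adjusted p = 0.000223). The NGI-1 call there (-1.11) ended when replicate 1 of DMSO (0.0546) or of NGI-1 (0.174) was left out, and the copanlisib call (-0.96) without copanlisib replicate 1 (0.101).

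IFIH1 in HBL1 had 31.9 and 35 CPM with NGI-1, 25.6 and 26 CPM with acalabrutinib and 27.7 and 23.7 CPM with copanlisib, against 42.7 and 42.6 CPM with DMSO at 6 h. The acalabrutinib change was -0.73 ± 0.14 (adjusted p = 0.000981) and the copanlisib change -0.73 (adjusted p = 0.000468). In TMD8 IFIH1 had 42.8 and 40.9 CPM with copanlisib against 75.7 and 68.9 CPM with DMSO (-0.79 ± 0.13, adjusted p = 2.86e-05). In these comparisons the treated libraries were the lower ones. Copanlisib lowered IFIT5 in TMD8 at 6 h to 20.6 and 24.7 CPM, against 39.4 and 43.5 CPM with DMSO (-0.87 ± 0.13, adjusted p = 4.67e-06). It lowered MX1 to 387 and 378 CPM, against 540 and 541 CPM with DMSO (-0.50, adjusted p = 0.00105). OAS1 again moved the other way. With copanlisib at 6 h OAS1 had 130 and 125 CPM in TMD8 against 98.8 and 91.8 CPM with DMSO (0.42 ± 0.09, adjusted p = 0.000995). In HBL1 it had 109 and 102 CPM with copanlisib against 65.8 and 61.6 CPM with DMSO (0.73 ± 0.09, adjusted p = 4.58e-07). Acalabrutinib at 6 h gave 5 lower members in TMD8 (2.88% of all tested genes called lower) and 7 in HBL1 (3.18%), and NGI-1 gave 6 in TMD8 (1.98%) and 2 in HBL1 (0.072%), with none higher in these comparisons. These counts fell when 1 library was left out, a step that leaves 1 library in a group. The acalabrutinib counts became 3 without replicate 1 of either group and 2 without acalabrutinib replicate 2 in TMD8, and 4 without either DMSO library and 2 without acalabrutinib replicate 1 in HBL1. The NGI-1 counts became 0 without NGI-1 replicate 1, 3 without DMSO replicate 1 and 2 without DMSO replicate 2 in TMD8, and in HBL1 0 without DMSO replicate 1 and 1 when NGI-1 replicate 1 was left out. With the replicate block, HBL1 at 6 h gave 15 lower and 3 higher members with acalabrutinib and 10 lower with NGI-1, where 15.3% and 5.66% of all tested genes were called.

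The compounds were also set against each other at 24 h, in 6 comparisons over both lines, which share libraries with each other. In TMD8 NGI-1 gave 12 members higher and 0 lower than acalabrutinib (1.12% of all tested genes called higher), with a median of 0.37. The 12 became 4 without NGI-1 replicate 1 or acalabrutinib replicate 2 and 7 without NGI-1 replicate 2. MX1 had 387 and 347 CPM with NGI-1 against 204 and 183 CPM with acalabrutinib (0.92 ± 0.11, adjusted p = 4.47e-07). EPSTI1 had 29 and 27.5 CPM with NGI-1 against 14.8 and 14.5 CPM with acalabrutinib (0.95 ± 0.15, adjusted p = 0.000129). XAF1 had 48.3 and 41.2 CPM with NGI-1 against 21.5 and 21.2 CPM with acalabrutinib (1.07 ± 0.17, adjusted p = 0.000103). These 3 were called whichever library was left out. Against copanlisib NGI-1 gave 24 members higher and 0 lower in TMD8 (1.1% of all tested genes called higher), with a median of 0.49, and the 24 became 15 without NGI-1 replicate 1 and 12 without copanlisib replicate 2. IFIT1 had 26.5 and 28.5 CPM with NGI-1 against 10.6 and 8.56 CPM with copanlisib (1.51 ± 0.21, adjusted p = 4.57e-06). ISG15 had 43.2 and 53 CPM with NGI-1 against 22.5 and 23.3 CPM with copanlisib (1.07, adjusted p = 3.77e-05). IRF7 had 34.5 and 34.7 CPM with NGI-1 against 17.2 and 19.3 CPM with copanlisib (0.93, adjusted p = 0.000385). The NGI-1 libraries were above the copanlisib libraries in each.

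In HBL1 the same comparisons gave few calls. NGI-1 against acalabrutinib gave 1 higher and 1 lower member (1.53% and 1.65% of all tested genes), OAS1 and PARP9. Neither call held with each library left out, a step that leaves 1 library in a group. OAS1 was not called without NGI-1 replicate 1 or acalabrutinib replicate 2. PARP9 was not called whichever 1 of the 4 libraries was left out. NGI-1 against copanlisib gave 1 higher member, TAP1 (2.67% of all tested genes called higher). It was not called whichever 1 of the 4 libraries was left out. Copanlisib against acalabrutinib gave 0 higher and 1 lower member in TMD8, OAS3 (0.151% of all tested genes called lower), and 1 higher and 0 lower in HBL1, OAS1 (0.0576% called higher). OAS3 was not called without acalabrutinib replicate 1 or copanlisib replicate 2, and OAS1 not without copanlisib replicate 1 or acalabrutinib replicate 2. With the replicate block the HBL1 counts were 7 for NGI-1 against acalabrutinib, 5 for NGI-1 against copanlisib and 4 for copanlisib against acalabrutinib, where 9.94%, 13.8% and 3.31% of all tested genes were called. A p that misses the threshold here does not show that the compounds act alike on these genes.

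Upstream of these genes, reads of interferon ligands were few. Of the 5 ligand genes listed, 4 were in the table and none had enough reads to be tested. IFNB1, interferon-beta, had 46 reads over the 24 TMD8 libraries (0 to 8 per library) and 16 reads over the 24 HBL1 libraries (0 to 3 per library). IFNA1, IFNA2 and IFNG had 0 reads in all libraries. For the lists that follow, the shares of all tested genes called at 24 h were 15.7% higher and 14.9% lower with NGI-1, 15.5% in each direction with acalabrutinib and 15.8% and 16% with copanlisib in TMD8. In HBL1 they were 7.95% and 11.4%, 7.62% and 11.4%, and 12.7% and 17.8% in the same order. Among the 7 receptor and kinase genes, 3 were called higher with NGI-1, 3 with acalabrutinib and 4 with copanlisib in TMD8, and 3 of each held with each library left out. In HBL1 1, 1 and 2 were called higher, of which 0, 0 and 1 held, and none was called lower in either line. The HBL1 call of IFNAR2, the other receptor subunit, was lost with NGI-1 when DMSO replicate 1 or either NGI-1 library was left out, and with acalabrutinib without DMSO replicate 1. IFNAR1, a receptor subunit, had 114 and 108 CPM with NGI-1, 111 and 108 CPM with acalabrutinib and 105 and 99.6 CPM with copanlisib in TMD8, against 68.2 and 67.8 CPM with DMSO. All 6 treated libraries were above DMSO, with changes of 0.70, 0.69 and 0.59 in that order.

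Of 7 other transcription factors at 24 h, NGI-1 gave 3 higher and 2 lower in TMD8, all held with each library left out, and 2 higher and 4 lower in HBL1, of which 1 and 2 held. Leaving out DMSO replicate 1 or NGI-1 replicate 2 made the 4 lower calls 2. Acalabrutinib gave 1 higher and 2 lower in TMD8, all held, and 1 higher and 3 lower in HBL1, of which 1 and 1 held, and without acalabrutinib replicate 1 the 3 became 1. Copanlisib gave 2 higher and 3 lower in each line, of which 1 and 2 held in TMD8 and all in HBL1. IRF8, a lymphoid IRF, had 133 and 123 CPM with NGI-1, 130 and 116 CPM with acalabrutinib and 141 and 134 CPM with copanlisib in TMD8, against 42.9 and 38.6 CPM with DMSO. In HBL1 IRF8 had 249 and 244 CPM with NGI-1, 246 and 239 CPM with acalabrutinib and 279 and 291 CPM with copanlisib, against 189 and 183 CPM with DMSO. IRF8 rose by 1.65, 1.60 and 1.76 in TMD8 and by 0.41, 0.38 and 0.62 in HBL1, with all treated libraries above DMSO. IRF4 fell in TMD8 by 0.67 with NGI-1, by 1.33 with acalabrutinib and by 0.61 with copanlisib. In HBL1 IRF4 was also called lower with each compound. IRF4 was not called there with NGI-1 when DMSO replicate 1 (change -0.36) or NGI-1 replicate 2 (-0.32) was left out. SPIB, its partner in restraining interferon genes, ran the other way with NGI-1 in TMD8, with 1136 and 1132 CPM against 836 and 915 CPM with DMSO (0.37 ± 0.08, adjusted p = 0.000279). In HBL1 SPIB had 579 and 561 CPM with copanlisib against 456 and 428 CPM with DMSO (0.37 ± 0.08, adjusted p = 0.00042). Both SPIB calls held with each library left out.

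Of 10 tested sensors and adaptors, NGI-1 gave 8 higher and 1 lower in TMD8, of which 4 and 0 held with each library left out, and 2 higher in HBL1, of which 1 held. The 8 became 5 without DMSO replicate 2. Acalabrutinib gave 5 higher in TMD8, of which 4 held, and 1 in HBL1, which held. Copanlisib gave 6 higher in TMD8, of which 5 held, and 5 higher and 1 lower in HBL1, of which 1 and 0 held. Without replicate 1 of DMSO or of copanlisib the 5 became 1, and without copanlisib or DMSO replicate 2 they became 2 and 3. TLR9, the endosomal DNA sensor, rose by 0.91, 0.91 and 0.76 in TMD8 and by 0.54, 0.56 and 0.57 in HBL1 with NGI-1, acalabrutinib and copanlisib in that order. Of 5 inhibitors of JAK and STAT signalling, NGI-1 gave 2 lower in each line, of which 1 in each held, and acalabrutinib 1 lower in each line, which held in TMD8 only. Copanlisib gave 2 lower in TMD8, of which 0 held, and 1 higher and 1 lower in HBL1, of which only the lower one held. PTPN6, the phosphatase SHP-1, fell with NGI-1 by 0.51 in TMD8 and by 1.29 in HBL1. The fall was not particular to NGI-1, since PTPN6 was also called lower with acalabrutinib and with copanlisib in both lines. With the replicate block, further genes of these lists were called in HBL1: JAK1, PIAS1 and TLR7 higher and TBK1 lower with NGI-1 (adjusted p from 0.0115 to 0.0453), JAK1, IKBKE, MAVS and SPIB higher and IFNGR1 and SOCS3 lower with acalabrutinib (0.0111 to 0.0499), and IRF5 and SOCS3 lower with copanlisib (1.64e-05 and 1.17e-05).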

How the data were processed

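The deposited values are read counts per gene, made by the authors with HTSeq on the human genome hg19, per the submitters' processing notes. For the aligner, annotation, versions and strand setting, the answer is not given in the sources used here. Over the 48 libraries totals ran from 7165377 to 11999050 counts, and 3449 of 25066 genes without an ID held 0.815% of the reads and were kept in scaling. Group membership came from the sample labels. The members and gene lists were chosen with earlier results of these data known, and the gene lists and roles were written from general knowledge.

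Library sizes were scaled with TMM (edgeR 4.0.16 with limma 3.58.1 under R 4.3.3), and 13881 genes passed filterByExpr. Each of the 24 groups had its own mean in the model, leaving 24 residual degrees of freedom, and contrasts were tested by quasi-likelihood F tests, with Benjamini-Hochberg adjustment over all tested genes in each of 30 comparisons and a threshold of 0.05. Replicates varied by a coefficient of variation of 7.34% (common dispersion 0.00539). The script was tested on simulated data. CPM used the scaled library sizes. The libraries of a group differed by more than repeated reading would give (chi-square per degree of freedom from 2.53 to 8.49).

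Genes were named by a rule: at 24 h up to 6 per direction called in both lines and 4 called in 1 line, at 3 and 6 h up to 4 per direction by adjusted p, up to 4 per direction for line differences, and 13 fixed members. Further genes shown in role groups, time courses and comparisons between compounds were chosen after their values were seen, with preference for calls that held when single libraries were left out.

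Alternatives were RLE size factors, DESeq2 1.42.0, no filter, a stricter filter (genes reaching 1 CPM in 2 libraries, with a mean log2 CPM of 1 or more), a separate fit of each line, 2 replicate blocks, and each library left out in turn, when the lone sample of a group is assumed to vary like the other groups. The labels state no pairing by replicate number. In HBL1 deviations of same-numbered libraries from their group means correlated above 0.1 in 18 of 18 pairs of groups (0.118 to 0.237), so these numbers were taken to pair the libraries, and counts with a replicate block within each line and time stand beside HBL1 results that moved. Promoter windows came from RefSeq (GRCh38.p14), where 10 members had none. The values of 1 gene on the transcription factor list and 1 on the MHC class I list are not reported here.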

Additional observations from a re-analysis of the deposited data

Results flagged for a closer look

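Effects of a compound at 24 h differed between the lines, by a test of the difference itself (TMD8 minus HBL1, edgeR), in the following genes. With NGI-1 the difference was 1.04 for MX1, 0.792 for PARP9, 1.05 for IFI35 and 1.23 for EPSTI1. With acalabrutinib it was 0.756 for OAS1, 0.646 for SP110, 0.552 for PARP9 and 2.24 for IFIT2. The PARP9 call was lost without DMSO replicate 2 of TMD8 (adjusted p = 0.0876) or acalabrutinib replicate 2 of HBL1 (0.057). The IFIT2 call rests on 2 to 23 reads per library in HBL1 and was lost without any of 6 libraries: acalabrutinib replicate 1 (0.0647) and DMSO replicate 2 (0.0938) of TMD8, and DMSO replicates 1 and 2 (0.0607 and 0.218) and acalabrutinib replicates 1 and 2 (0.211 and 0.0657) of HBL1. With copanlisib the difference was 0.495 for PARP9, -1.47 for GBP1 and -0.989 for IFI6. The PARP9 call with copanlisib was lost without copanlisib replicate 1 (0.164) or DMSO replicate 2 (0.175) of TMD8, and without DMSO replicates 1 and 2 (0.0911 and 0.0554) or copanlisib replicates 1 and 2 (0.0568 and 0.104) of HBL1. The IFI6 call was lost without DMSO replicates 1 and 2 (0.0672 and 0.067) or copanlisib replicate 1 (0.162) of TMD8, and without DMSO replicates 1 and 2 (0.0511 and 0.0569) or copanlisib replicate 2 (0.0845) of HBL1.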

How the results depend on the processing

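Counts of called members kept within 1.5 times of the reported count in 162 of 206 recomputations other than leaving out a library, and no call turned its sign in any setting. Counts moved further as follows (edgeR unless named; time in h after the compound). With DESeq2: NGI-1 at 6 h in HBL1 4, NGI-1 against copanlisib in HBL1 0, also 0 with RLE size factors, the stricter filter and a separate fit of each line. Without a filter: NGI-1 at 6 h 10 in TMD8 and 5 in HBL1, acalabrutinib at 6 h in TMD8 10, copanlisib at 3 h in HBL1 5, NGI-1 against acalabrutinib in TMD8 19, NGI-1 against copanlisib in HBL1 2, copanlisib against acalabrutinib in TMD8 2. With the stricter filter: acalabrutinib at 6 h in TMD8 10. With a separate fit of each line, which gives no line differences: NGI-1 at 6 h 10 in TMD8 and 1 in HBL1, acalabrutinib at 6 h in TMD8 12, NGI-1 against acalabrutinib in HBL1 1, copanlisib against acalabrutinib in TMD8 2. The cause of these moves was not tested.

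In TMD8 replicate numbers were not taken to pair the libraries: deviations of same-numbered libraries correlated at 0.047 to 0.302, over 0.1 in 6 of 18 pairs of groups. At 24 h the correlation was 0.302 for acalabrutinib with copanlisib and 0.176 for copanlisib with DMSO. For NGI-1 it was 0.142 with copanlisib, 0.123 with acalabrutinib and 0.098 with DMSO, and for acalabrutinib with DMSO 0.094. The TMD8 results at 24 h without a block may thus ignore a pairing. In both lines together 26 of 48 libraries were closest to a library of their own number. With a replicate block the counts were 5 for NGI-1 at 6 h in HBL1, 13 for acalabrutinib at 6 h in TMD8, 5 for copanlisib at 3 h in HBL1, 19 for NGI-1 against acalabrutinib in TMD8, 2 for copanlisib against acalabrutinib in TMD8 and 5 for the line difference of copanlisib. With a replicate block within each line and time, NGI-1 gave 3 (3 h) and 19 (6 h) in TMD8 and 1, 10 and 24 (3, 6 and 24 h) in HBL1. Acalabrutinib gave 6 and 21 in TMD8 (3 and 6 h) and 2, 18 and 24 in HBL1, and copanlisib at 3 h gave 18 in TMD8 and 11 in HBL1. Line differences numbered 27 for NGI-1, 11 for acalabrutinib and 12 for copanlisib. NGI-1 against acalabrutinib gave 29 in TMD8 and 7 in HBL1, NGI-1 against copanlisib 5 in HBL1, and copanlisib against acalabrutinib 9 in TMD8 and 4 in HBL1. In HBL1 this block also called more of all tested genes. The TMD8 counts stand here without such a share, so they do not show a growth particular to the members.

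With 1 library left out at a time, NGI-1 gave 0 to 2, 0 to 4 and 22 to 23 members in TMD8 and 0 to 0, 0 to 2 and 9 to 12 in HBL1 (3, 6 and 24 h). Acalabrutinib gave 0 to 4, 2 to 4 and 14 to 16 in TMD8 and 0 to 0, 2 to 6 and 6 to 9 in HBL1. Copanlisib gave 1 to 9, 11 to 18 and 17 to 25 in TMD8 and 1 to 2, 8 to 9 and 11 to 15 in HBL1. Line differences numbered 5 to 11, 2 to 5 and 1 to 4 for the compounds in that order. NGI-1 against acalabrutinib gave 4 to 10 in TMD8 and 0 to 1 in HBL1, NGI-1 against copanlisib 12 to 18 and 0 to 0, and copanlisib against acalabrutinib 0 to 1 in each line. DMSO at 24 h against 3 h gave 14 to 18 in TMD8 and 16 to 19 in HBL1, and TMD8 against HBL1 under DMSO 36 to 40. With 2 libraries a group, small changes of genes with few reads could not be detected. The medians without CMPK2 were added after seeing the data.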

Other observations

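Genes of MHC class I presentation, which interferon also induces, were not among the 47. Of 11 listed genes (HLA molecules, B2M, peptide transport and immunoproteasome genes, and the activator NLRC5), NGI-1 at 24 h gave 8 higher and none lower in TMD8, of which 6 held with each library left out, where 15.7% and 14.9% of all tested genes were called. In HBL1 it gave none higher and 1 lower, PSMB10, which did not hold (7.95% and 11.4% of all tested genes). Acalabrutinib gave 6 higher in TMD8, of which 5 held (15.5% of all tested genes), and 2 higher and 3 lower in HBL1, of which 1 and 2 held (7.62% and 11.4%). Copanlisib gave 8 higher in TMD8, of which 6 held (15.8%), and 3 higher and 1 lower in HBL1, of which 1 and 1 held (12.7% and 17.8%). In HBL1 the 2 higher calls with acalabrutinib became 1 whichever library was left out, and the 3 with copanlisib became 1 without copanlisib replicate 1. With a replicate block, NLRC5 was called lower with NGI-1 in HBL1 (adjusted p = 0.0139), B2M and HLA-C higher with acalabrutinib (0.00487 and 0.00633), and B2M and NLRC5 higher and PSMB10 lower with copanlisib (0.0123, 0.00256 and 0.0221). HLA-B, a classical class I chain, had 588 and 619 CPM with NGI-1, 622 and 578 CPM with acalabrutinib and 641 and 631 CPM with copanlisib in TMD8, against 383 and 429 CPM with DMSO. In HBL1 HLA-B had 486 and 470 CPM with NGI-1 against 468 and 446 CPM with DMSO, and this change was not called (0.06, adjusted p = 0.6). HLA-E, the ligand of NKG2A on NK cells, had 204 and 208 CPM with NGI-1, 204 and 192 CPM with acalabrutinib and 199 and 211 CPM with copanlisib in TMD8, against 139 and 147 CPM with DMSO. In HBL1 HLA-E had 86.9 and 85.9 CPM with NGI-1, 104 and 105 CPM with acalabrutinib and 120 and 111 CPM with copanlisib, against 86.3 and 79.2 CPM with DMSO. HLA-E rose in TMD8 by 0.52, 0.47 and 0.52 (edgeR, adjusted p = 4.5e-07, 3.07e-06 and 5.78e-07). In HBL1 it rose by 0.34 with acalabrutinib and 0.48 with copanlisib, and the NGI-1 change of 0.06 was not called. HLA genes are polymorphic and alike, and how reads were divided among them was not examined.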
